A study of Homo sapiens with 4 samples.

Results

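The regions described here were 765 peaks of WT p53 in Tet-treated H1299 cells, each over a p53 response element (RE) that the study lists, at which no peak of K120R p53 was called after the same treatment. They were chosen by their overlap of at least 1 bp with a listed RE and by the absence of any overlapping peak in the deposited K120R list, so the peak calls of both Tet-treated libraries chose them. They made up 765 of the 1330 WT peaks that overlapped a listed RE (57.5%, exact Clopper-Pearson 95% interval 54.8 to 60.2%) and 765 of all 4326 WT peaks. Over the whole list, 74.8% of the WT peaks overlapped no K120R peak, and nothing is read from either share, because this contrast selected the regions. The other 565 WT peaks over a listed RE overlapped a K120R peak and are called shared. H1299 is a human lung cancer line without p53, and the cells used here expressed the Tet repressor and carried lentiviral, Tet-inducible p53, either WT or K120R, a mutant with arginine in place of lysine at position 120. Each form was measured by ChIP-seq with an antibody to p53, after fixation with 3% formaldehyde, in cells left untreated or treated with Tet for 24 h (dose 1 µg/ml in the methods and 1 µg/µl in the labels). These 4 conditions had 1 library each, with no replicates, so no test compares them and all intervals cover counting error only. The ChIP libraries held 33059650 (WT untreated), 33531162 (WT Tet), 34151544 (K120R untreated) and 34857204 tags (K120R Tet). A missing peak is one that the caller did not report at such a depth. The caller used fragment lengths of 170 bp for WT Tet, 68 bp for K120R Tet and 64 bp for both untreated libraries. Values from separate lists therefore do not share 1 scale, also where they are given side by side.

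p53 is a tumor suppressor that binds DNA as a tetramer and activates genes for cell cycle arrest, DNA repair and apoptosis. Its REs consist of a pair of half-sites, each with a core of C, A or T at both middle bases, and G, with purines before the core and pyrimidines after it. Lys120 lies in the DNA-binding domain, contacts the bases next to the core in the major groove, and is acetylated in response to DNA damage.

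The sequences are given as listed, 5′ to 3′, with positions counted from 1 at the 5′ end, and their coordinates are 1-based on GRCh37. Capitals mark positions 3, 8, 13 and 18, which sit directly beside the cores and are called the flanking positions, because their G/C bps set the regions apart from the shared ones. The members with the largest WT fold enrichment are shown first, since they had strong WT peaks and no K120R peak. They lay in an intron of RBPJ (chr4:26408450-26408469, listed for CCKAR), near SPATA31D1 (chr9:84636327-84636346), in introns of CAMK2D (chr4:114482487-114482506) and CCDC170 (chr6:151845347-151845366), in MED4 (chr13:48640870-48640889), near NPL (chr1:182730694-182730713) and in BTG4 (chr11:111381266-111381285).
CCKAR: agGcatgTctggGcaggCcc
SPATA31D1: gaAcatgCctggGctagCct
CAMK2D: ggAcatgCctggGcatgCct
CCDC170: agGcatgTctggGcaagCcc
MED4-AS1: agAcaagCcctgGgcagGtt
NPL: ggGcatgTctggGcaagTcc
BTG4: agGcatgCctagAcatgAac

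The extremes of G/C content show how far the members spread. The strongest members with 4 G/C bps lay near ARAP2 (chr4:35521871-35521890), near C9orf69 (TMEM250; chr9:139001670-139001689), in an intron of MSI2 (chr17:55601486-55601505) and near TEX37 (chr2:88838001-88838020). Of the strongest with 0 G/C bps, those listed for ATP1B1 (chr1:168961159-168961178) and HSPB3 (chr5:53700529-53700548) follow.
ARAP2: ggGcatgCccagGcaagCct
C9orf69: cgGcatgCccggGcacgCtg
MSI2: ggGcatgCccagGctagCct
TEX37: agGcatgCctagGcatgCct
ATP1B1: ggAcatgTctgcAcatgAaa
HSPB3: gaAcaagTtcttAcatgTtc

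Some members carried CATG in one half-site and CTAG in the other, with these cores in capitals. They are shown because none of the REs with this pair of cores had a K120R peak. Besides MSI2, they included REs near or in GDNF (chr5:37848167-37848186), JAG1 (chr20:10714024-10714043), BRAF (chr7:140567820-140567839), CCND2 (chr12:4222189-4222208), COL4A6 (chrX:107556410-107556429) and CCDC130 (chr19:13764892-13764911), which were named after their values were seen.
GDNF: gaaCATGcctgggCTAGcct
JAG1: gaaCATGcccgggCTAGcct
BRAF: gaaCATGcctggaCTAGttt
CCND2: gaaCATGtttggaCTAGttt
COL4A6: gaaCATGaccagaCTAGacc
CCDC130: ggaCATGcccagaCTAGccc

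Pairs of a member and a shared RE that differ at 1 base let a single base be compared with the rest of the RE held the same. The base that differs is in capitals. The BAX RE (chr19:49458470-49458489) was 1 base from a shared RE listed for DCP1B (chr12:2113816-2113835), the NPL RE from that of BCL2A1 (chr15:80295685-80295704), the STK17A RE (chr7:43617244-43617263) from that of FTH1 (chr11:61766640-61766659), and the PHF17 RE (chr4:129607455-129607474) from that of MICB (chr6:31455434-31455453).
BAX: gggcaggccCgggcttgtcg
DCP1B: gggcaggccTgggcttgtcg
NPL: ggGcatgtctgggcaagtcc
BCL2A1: ggAcatgtctgggcaagtcc
STK17A: gggcatgctcaggcaAgtcc
FTH1: gggcatgctcaggcaTgtcc
PHF17: gaacttgcacaggggAgctt
MICB: gaacttgcacaggggGgctt

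WT occupancy was described by the MACS fold enrichment, the ratio of the fragment pileup at the summit to the local background, and it belongs to the WT list that helped to choose the members. Their WT fold enrichment after Tet ranged from 2.91 to 60.1, with a median of 11.2 (order-statistic 95% interval 10.9 to 11.9) and quartiles of 7.96 and 15.7. Shared peaks had a median of 20.1 (18.2 to 21.3), and WT peaks with neither a listed RE nor a K120R peak had a median of 6.05. WT peaks with a K120R peak but no listed RE had a median of 8.14 (7.65 to 8.61). The members thus lay between the shared peaks and both groups without a listed RE, and their range reached well into that of the shared peaks. The paper describes the listed REs as lying under enriched WT peaks of this experiment that passed a minimum read count. The difference from peaks without a listed RE was therefore partly set by that choice, and nothing is read from it. Their median pileup was 46.5 fragments, against 87.2 at shared peaks, and their median length was 364 bp, against 496 bp. The centre of a member RE lay a median of 14.5 bp from the WT summit (12.5 to 15.5), against 11.5 bp in shared peaks (10.5 to 12.5).

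The strongest member, chr4:26408098-26408804, had a WT fold enrichment of 60.1 after Tet and 6.76 in untreated cells. It lay in an intron of RBPJ, the transcription factor through which Notch signals. The SPATA31D1 peak reached 59.5 after Tet and 11.3 without it. CAMK2D, a calcium- and calmodulin-dependent kinase, had values of 52.2 and 16.6, and CCDC170 had 51.2 and 7.67. The peak at MED4, a subunit of the Mediator complex, had 47.7 and 9.42, and it was stronger than the shared WT peak at the other RE listed for MED4-AS1 (30.04). NPL encodes an enzyme that cleaves sialic acid, and its peak had 47.4 and 9.42. At BTG4 the WT fold enrichment was 43.0 after Tet, with no peak in untreated cells, and the summit lay 49 bp from a start of MIR34BHG, the host transcript of p53-responsive microRNAs. The next were at the kinase gene MAST2 (42.6), near the neuronal membrane protein gene GPM6A (42.0) and in an intron of CHI3L2 (39.2, listed for DENND2D). Among these 10 peaks, the gap to the nearest K120R peak ran from 5364 bp at MED4 to 9379954 bp near GPM6A. It was 33520 bp at CCDC170 and 134565 bp at the RBPJ intron peak. At the other end, the weakest members were listed for FAM220A (3.602), BAI1 (ADGRB1; 3.34), CDC42EP3 (3.30), PAX5 (3.12) and CCDC130 (2.91), and none of these 5 had a peak without Tet.

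The absence of an overlap is a threshold in position, and few members lay close to a K120R peak. The q-value limit of the peak calls is another threshold, and K120R signal below it was not measured. With a -log10 q of at least 10 in both lists, the share of listed-RE WT peaks without a K120R peak went from 57.5 to 76.1%. The member at MBD6, a methyl-CpG-binding domain protein gene, ended 52 bp from a K120R peak with a fold enrichment of 5.06, and that in METTL15 ended 340 bp from one of 24.7. The METTL15 locus holds a further listed RE 834 bp away, with a shared peak. The next gaps were 1909 bp near AREG, an EGF receptor ligand gene, 2879 bp near TEX10 and 3000 bp near LRRN3. Among shared peaks, the overlap was shortest in LINC01036, at 37 bp with the summits 185 bp apart. Overlaps of 68 bp, the fragment length of the K120R library, were found in INPP5B, GHR, TMOD3 and LINC02052, with the summits 4, 37, 32 and 8 bp apart. The K120R fold enrichments of these 5 were 6.20, 5.26, 6.11, 3.75 and 5.68. A K120R peak lay within 10 kb of 23 members (3.01%, 1.92 to 4.48%), against 4.39% of all WT peaks without a K120R overlap, and the share in members fell to 0.832% (0.360 to 1.63%) at a -log10 q of at least 10 in both lists. The median gap was 478790 bp (393852 to 519287). One of the near neighbours was the upstream RE of CDKN1A, 8475 bp from the K120R peak with a fold enrichment of 34.4 at the p21 start.

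The untreated libraries were not used to choose the members, so they show where p53 was bound without added Tet. A WT peak of untreated cells overlapped 116 of the 765 members (15.2%, 12.7 to 17.9%) and 227 of the 565 shared peaks (40.2%, 36.1 to 44.4%). Over all WT peaks the share was 9.27%. The difference between members and shared peaks was -25.01 percentage points (Newcombe 95% interval -29.7 to -20.2). Untreated K120R cells had only 12 peaks, which overlapped 0 members and 1 shared peak. The largest untreated WT values among members were 17.9 near ACTBL2 (chr5:57130841-57131542), 16.6 in CAMK2D, 15.1 near FAT1, 14.6 near C9orf69 (TMEM250) and 12.9 near ADCY9. These members had WT fold enrichments of 38.8, 52.2, 26.2, 31.7 and 36.9 after Tet, all above the member median. Members with an untreated peak had a median WT fold enrichment after Tet of 21.1 (18.8 to 22.9), and the remaining 649 had 10.5 (9.87 to 10.9).

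The 1330 peaks were split into 4 bins of near-equal size by WT fold enrichment, and members and shared peaks were compared within each. From the lowest to the highest bin, 1.89, 6.05, 23.6 and 60.2% of members had an untreated WT peak. The shares among shared peaks were 5.80, 9.91, 24.4 and 71.6%. Within a bin, the intervals of the shares overlapped in all 4 bins, and in both groups the share was larger where the WT peak was stronger. The part of WT strength in the difference over all members was not tested.

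**Figure D1:**
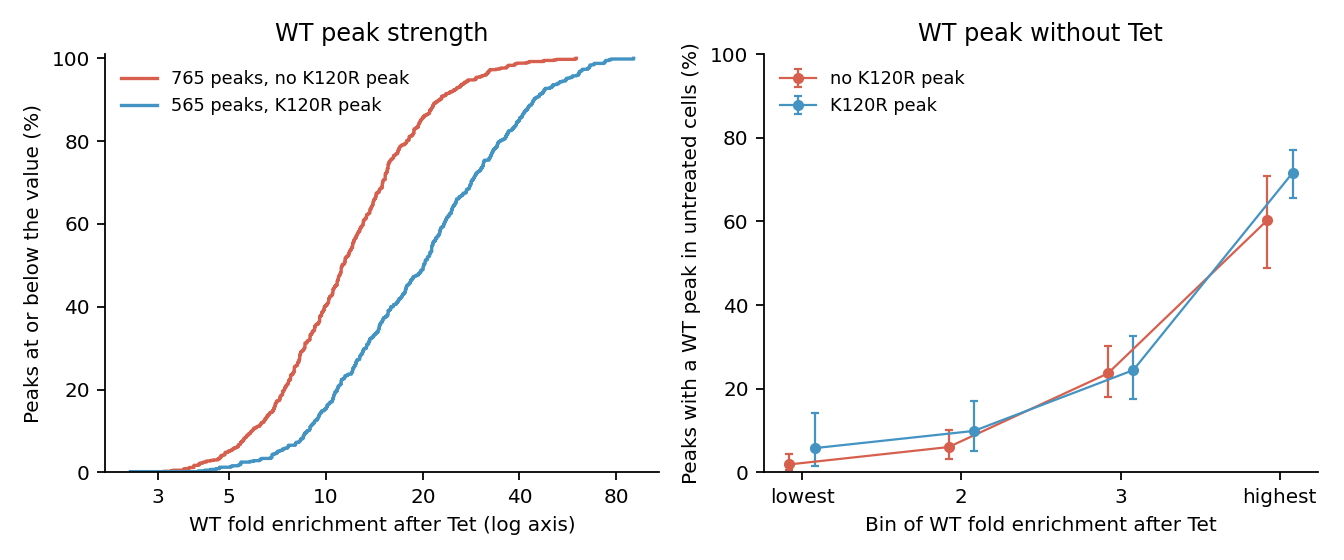
Left, cumulative percentage of peaks (y axis) by WT fold enrichment after Tet (x axis, log) for 765 members and 565 shared peaks; right, percentage of peaks with a WT peak in untreated cells by bin of WT fold enrichment, with exact 95% intervals as bars. Members sit at lower fold enrichment (median 11.2 against 20.1), while both groups climb together on the right, to 60.2 and 71.6% in the highest bin.

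Most members lay away from promoters. Their summits were in introns in 58.0% of cases and between genes in 37.0%, while 1.70% were in UTRs, 0.915% in coding exons and 2.35% in noncoding exons. A transcription start lay within 1 kb of the summit in 61 members (7.97%, 6.15 to 10.1%), against 89 shared peaks (15.8%, 12.8 to 19.02%) and 9.04% of all WT peaks. The difference was -7.78 percentage points (-11.4 to -4.28), and the share in members was close to that of all WT peaks. The member with the largest fold enrichment within 1 kb of a start was that at MIR34BHG. C9orf69 (TMEM250), MSI2 and BAX came next, with summits 404, 562 and 298 bp from a start. Within each class of G/C content, the share of REs without a K120R peak was smaller near a start, though the intervals met for all classes but that of 2 G/C bps. For 0 or 1 G/C bp, the share was 20.7% of 58 REs near a start and 37.4% of 446 farther away. For 2 G/C bps it was 46.3% of 54 and 66.3% of 424, and for 3 or 4 it was 63.2% of 38 and 81.8% of 314.

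The members differed from the shared REs in the bases that flank the cores. Of 766 member REs, 281 had 3 or 4 G/C bps at the flanking positions (36.7%, 33.3 to 40.2%), against 71 of 568 shared REs (12.5%, 9.89 to 15.5%), a difference of 24.2 points (19.7 to 28.4). Only 35 member REs (4.57%) had 0 G/C bps there, against 121 shared REs (21.3%). The difference narrowed with distance from the core. Adjacent to the core, G/C bps filled 53.9% of the bases in members and 34.0% in shared REs, a difference of 19.9 points (17.3 to 22.5). One base farther out (positions 2, 9, 12 and 19) the difference was 7.97 points (5.44 to 10.5). At the outermost bases of the half-sites (positions 1, 10, 11 and 20) it was -2.75 points (-5.45 to -0.045), the opposite direction. The whole 20 bp held a median of 11 G/C bps in members and 10 in shared REs, and the 100 bp on either side were 47.5% G/C (46.5 to 48) and 45% (44 to 46). The number of mismatches to the p53 consensus did not separate the groups, with a median of 2 in both.

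**Figure D2:**
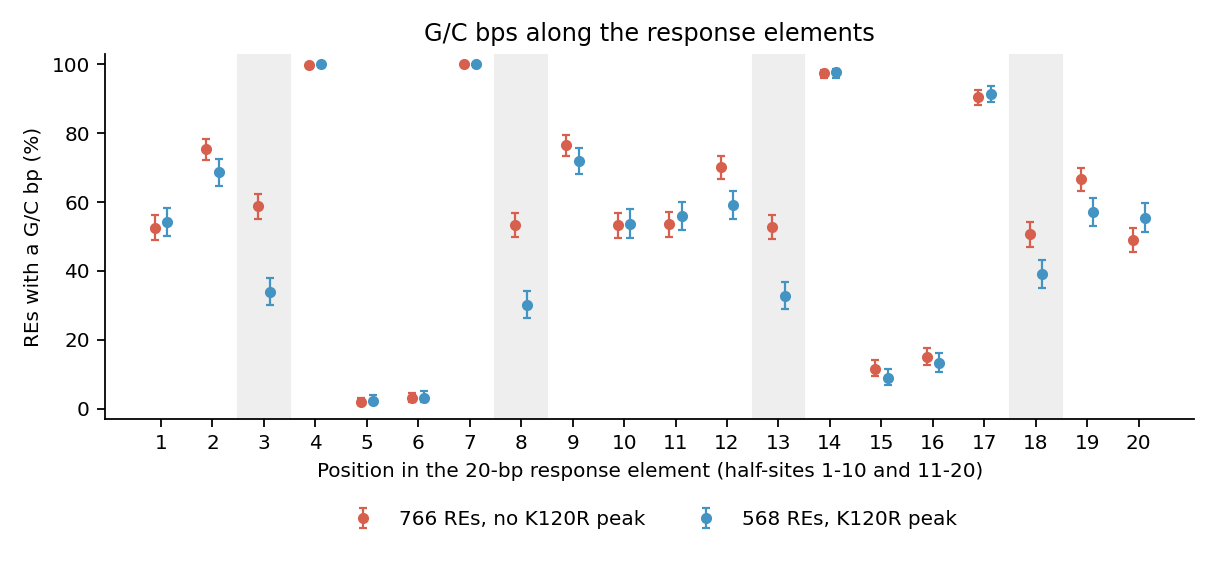
Percentage of REs with a G/C bp (y axis) at each position of the 20-bp RE (x axis) for 766 member REs and 568 shared REs, with exact 95% intervals as bars and positions 3, 8, 13 and 18 shaded. Members lie above shared REs at the shaded positions, from 58.7 against 34.0% at position 3 to 50.7 against 39.1% at position 18.

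The inner and outer pairs of these positions were then separated. With A/T bps at all 4 positions, 35 of 156 REs had no K120R peak (22.4%, 16.2 to 29.8%). A single G/C bp at position 3 or 18 gave 69 of 187 (36.9%, 30.0 to 44.2%), and a single one at position 8 or 13, toward the centre of the RE, gave 75 of 161 (46.6%, 38.7 to 54.6%). With 2 G/C bps, the share was 65.4% when they were at positions 8 and 13 (53.8 to 75.8%) and 59.2% when they were at 3 and 18 (49.1 to 68.8%). At 3 and 13, or 8 and 18, the share was 119 of 176 (67.6%, 60.2 to 74.5%). At 3 and 8, or 13 and 18, the share was 75 of 121 (62.0%, 52.7 to 70.7%). With all 4 positions G/C it was 82.5% of 63 REs (70.9 to 90.9%). With 3 G/C bps, the share was 120 of 148 when both outer positions and 1 inner position held them (81.1%, 73.8 to 87.0%) and 109 of 141 when both inner positions and 1 outer did (77.3%, 69.5 to 83.9%). The inner pair gave a larger share than the outer pair with 1 or 2 G/C bps but not with 3, and the intervals overlapped in each comparison. With 2 G/C bps, the share was largest at 3 and 13, or 8 and 18.

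REs of each G/C class were less often without a K120R peak where WT occupancy was high. In the lowest bin of WT fold enrichment, 63.6% of REs with 0 or 1 G/C bp, 83.0% with 2 and 93.2% with 3 or 4 had none. In the highest bin, the same classes gave 9.66, 29.3 and 50%, the last of these being 34 of 68 REs (37.6 to 62.4%). RBPJ, SPATA31D1, CAMK2D and CCDC170 are among these 34, each with 3 G/C bps. The order of the classes was the same in all 4 bins. Members with 0 G/C bps were confined to a WT fold enrichment of at most 16.9, that of ATP1B1, a subunit gene of the sodium pump, whereas shared REs with 0 G/C bps reached 61.4. Other strong members with 0 G/C bps were listed for LOC643802 (15.6), RFX1 (14.1) and the small heat-shock protein gene HSPB3 (14.01). Members with 4 G/C bps reached 36.6 at ARAP2, 31.7 at C9orf69 (TMEM250), 30.5 at MSI2, which encodes an RNA-binding protein, 26.2 at TEX37 and 25.1 at EDN2, an endothelin gene.

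**Figure D3:**
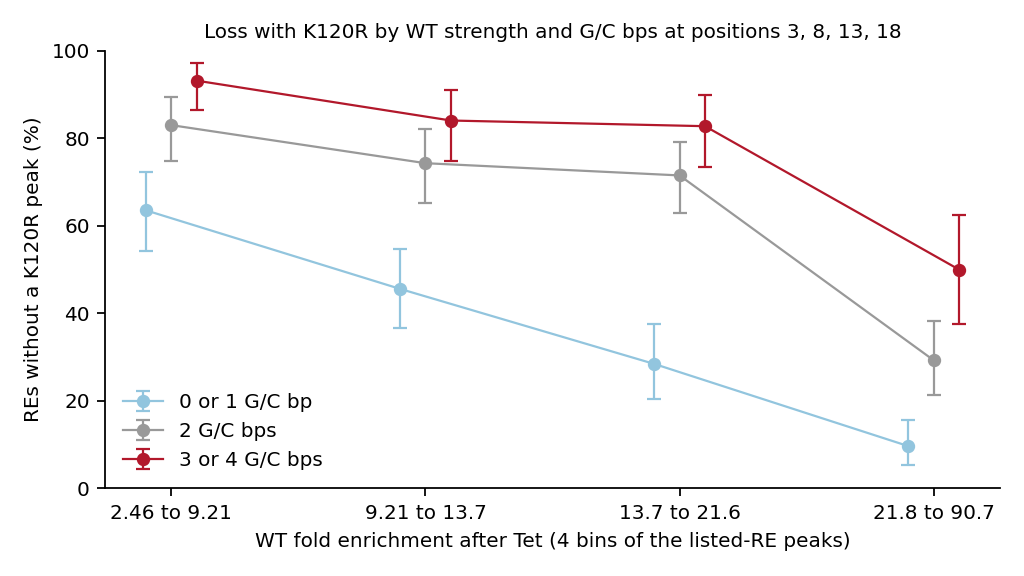
Percentage of REs without a K120R peak (y axis) by bin of WT fold enrichment after Tet (x axis, range of each bin) for REs with 0 or 1, 2, and 3 or 4 G/C bps at the flanking positions, with exact 95% intervals as bars. All classes fall with WT strength, from 63.6, 83.0 and 93.2% to 9.66, 29.3 and 50%, in the same order.

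The cores differed too. Pooled over both half-sites, CATG made up 53.4% of the half-site cores of members and 57.8% of those of shared REs, a difference of -4.44 points (-8.23 to -0.63). The interval included 0 with peaks seen in untreated WT cells left out, at -1.32 points (-5.93 to 3.31), and at a -log10 q of at least 10 in both lists, at -2.28 points (-6.74 to 2.25). CAAG or CTTG made up 24.3 and 24.0%. At position 16, picked after its values were seen, 28.1% of member REs and 15.1% of shared REs had A, a difference of 12.9 points (8.51 to 17.2), and 56.9 and 71.7% had T, a difference of -14.7 points (-19.7 to -9.56). At position 6, the same place in the first half-site as listed, the differences ran the other way. They were -4.46 points for A (-8.44 to -0.608) and 4.63 for T (0.472 to 8.88). These shares count each locus, also where several loci have the same RE sequence. CTAG was rare, at 37 of 1532 member cores (2.42%) and 10 of 1136 shared cores (0.880%). All 28 REs that paired CATG with CTAG were members (100%, 87.7 to 100%), against 57.4% of all listed REs with a WT peak. This pair was picked after its values were seen, and it comprised 26 distinct sequences. From 0 to 4 G/C bps at the flanking positions, its REs numbered 2, 3, 10, 11 and 2, with a mean of 2.29. Over distinct sequences with any cores, 35.9% with 0 or 1, 62.4% with 2 and 77.7% with 3 or 4 had no K120R peak. The part of G/C content in the share of this pair was not tested. Where CTAG was paired with another core, 9 of 19 REs had no K120R peak (47.4%, 24.4 to 71.1%). WT fold enrichment at the 28 REs had a median of 10.1 and ran from 2.91 at CCDC130 to 59.5 at SPATA31D1, and 8 had an untreated WT peak. MSI2 (30.5), GDNF, a neurotrophic factor gene (23.6), and JAG1, a Notch ligand gene (20.7), followed SPATA31D1. BRAF, a kinase gene of the MAPK pathway, had 15.5 with 1 G/C bp at the flanking positions. CCND2, which encodes cyclin D2, and COL4A6, a collagen gene, had 9.66 and 7.96 with 0 G/C bps. These were the only 2 REs of the pair with 0 G/C bps (interval of the share 15.8 to 100%), and both values lay below the member median.

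The commoner core pairs were also compared. With CATG at both half-sites, 197 of 412 REs had no K120R peak (47.8%, 42.9 to 52.8%). For REs with CATG listed first and CAAG second, read so that either strand gives the same label, it was 127 of 185 (68.6%, 61.4 to 75.3%). With CAAG before CATG it was 84 of 156 (53.8%, 45.7 to 61.8%). In this order the pairs comprised 352, 142 and 154 distinct sequences, and the intervals count loci that share a sequence as if independent. These pairs differ in G/C content too, with means of 1.62, 2.19 and 1.51 G/C bps at the flanking positions. Within REs with 0 or 1 G/C bp, the shares in the same order were 50 of 173, 14 of 47 and 36 of 87. With 2 they were 100 of 171, 41 of 59 and 23 of 40, and with 3 or 4 they were 47 of 68, 72 of 79 and 25 of 29. The order of the pairs was not the same in the 3 classes. NPL and CCDC170 are members of the CATG then CAAG kind.

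Some 20-bp sequences were listed at several loci, which allows the same RE to be compared in different surroundings. There were 50 such sequences at 168 loci, and 122 of the loci had no K120R peak (72.6%, 65.2 to 79.2%), against 644 of 1166 REs listed once (55.2%, 52.3 to 58.1%). Split by G/C content, the share was 3 of 15 loci against 176 of 489 with 0 or 1 G/C bp, 61 of 86 against 245 of 392 with 2, and 58 of 67 against 223 of 285 with 3 or 4. The first of these runs the other way, and the intervals overlapped in all 3 classes. The 20 bp on either side of these loci were identical at a median of 72.5% of bases per sequence, with a lowest value of 25%, so the loci cannot be taken as independent. In 19 sequences every locus lacked a K120R peak, in 7 every locus had one, and 24 were mixed. The mixed sequences had 65 loci without and 31 with a K120R peak. In 19 of these 24 the median WT fold enrichment was larger at the shared loci, so strength at the locus differed with the RE held the same.

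The most frequent sequence, with 2 G/C bps, lay at 18 loci, 16 of them members. MAST2 had the strongest WT peak among these members (42.6) and MDM1 the weakest (10.0), and the shared loci were in introns of the histone demethylase gene KDM4C (50.9) and the kinase gene WNK1 (19.7). The sequence next in frequency, printed here with the flanking positions in capitals, had 8 members among 11 loci.
MED13: ggGcatgTctggGcaagTca
MED13, a Mediator subunit gene, had the strongest member of this set (chr17:60221507-60221526, WT fold enrichment 36.3), and LINC00320 the weakest (10.9). PABPC1P2 had the strongest shared locus (43.9, K120R peak called), and the shared loci at RANBP3L (22.6) and LINC00410 (21.3) were weaker than MED13, NEO1 (31.1), ARHGAP5-AS1 (26.4) and UBE2F (24.3), which are members. A further set of 6 loci, all members, is shown because it keeps G/C bps at positions 3, 8 and 13.
UBP1: ggGcatgCccagGcaagAcc
Its WT fold enrichments ran from 13.8 at CA10 to 23.6 at ACN9, with 22.5 at UBP1 (chr3:33509456-33509475). A set of 8 members with 3 G/C bps reached 22.6 at DCAF17, and a set of 5 with 4 G/C bps reached 18.8 at HS6ST2, a heparan sulfate sulfotransferase gene. Another set of 5, with 2 G/C bps, reached 15.3. All the loci of these 4 sets lacked a K120R peak, and the sets were picked for this after their values were seen. Over all recurring loci, these included, the share was 58 of 67 with 3 or 4 G/C bps and 61 of 86 with 2.

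In LYST, both REs listed for GNG4 have the same sequence and lie 5124 bp apart. The member lies at chr1:235833408-235833427 and the shared RE at chr1:235838532-235838551.
GNG4: agAcatgCccagActtgTtc
WT fold enrichment was 22.9 at the member and 30.9 at the shared RE after Tet, and 10.1 and 10.5 without it. The K120R peak at the shared RE had a fold enrichment of 6.57. The largest difference in favour of the shared locus was between CCDC30 (20.4, no K120R peak) and PHF14 (77.0, K120R 7.22), and the reverse order was seen at FIGN (34.6, no K120R peak) and PLSCR5 (25.03, K120R 9.28).

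**Figure D4:**
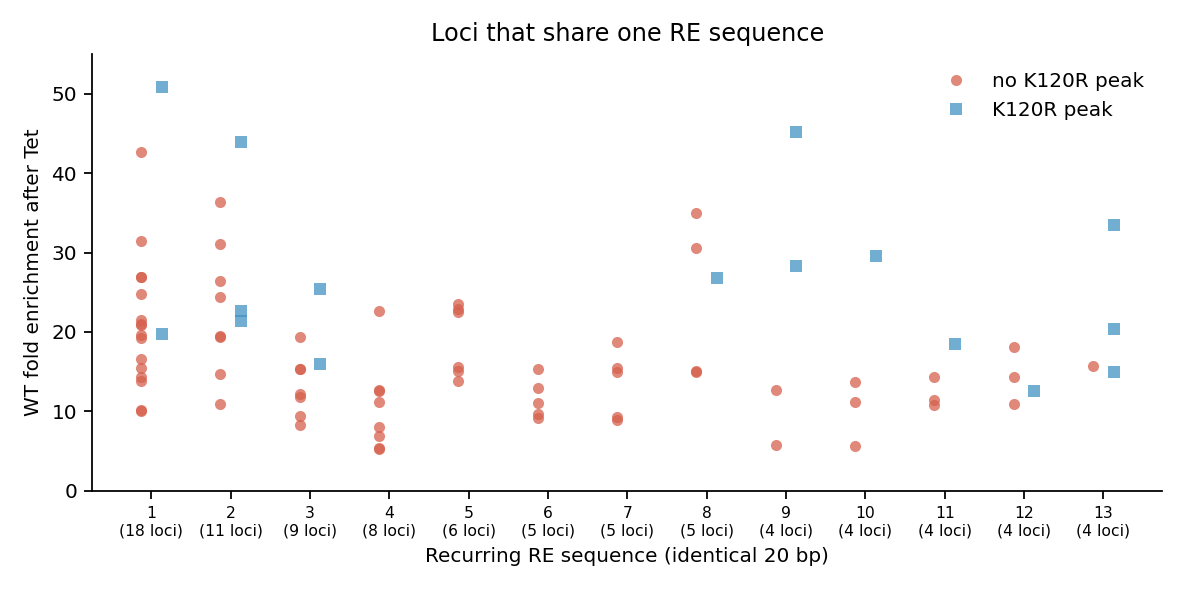
WT fold enrichment after Tet (y axis) at each locus of the 13 RE sequences listed at 4 or more loci (x axis, ordered by number of loci), with circles for loci without and squares for loci with a K120R peak. Sequence 1 has 16 members and 2 shared loci, and sequences 4, 5, 6 and 7 have members alone.

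Without REs that carry an insert, there were 59 pairs of a member sequence and a shared sequence that differed at 1 base, and several pairs share a member or a shared RE. A further 2 pairs, of MSGN1 and MYO3B, were left out because the member has a 1-bp insert and the shared RE has none. WT fold enrichment was larger at the shared RE in 57 of the 59. Shared peaks were also stronger among all WT peaks with a listed RE, with a median of 20.1 against 11.2 in members. Nothing further is read from this count. Sequences found at several loci, such as that of CDH8, entered these pairs with 1 locus. Substitutions are written with the base of the shared RE, the position in the member RE as listed, and the base of the member. At the positions adjacent to the core there were 18 pairs, and the G/C bp was in the member in 12 and in the shared RE in 4. At the middle positions these counts were 6 and 5 of 12 pairs, at the outer positions 5 and 7 of 14, and in the core 6 and 5 of 15. These counts are small, and the difference between the places was not tested.

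NPL and BCL2A1, an antiapoptotic BCL2 family gene, differed by A3G and had WT fold enrichments after Tet that were equal at 47.4 to the digits given, although the pair counts among the 57. In untreated cells the values were 9.42 at NPL and 17.7 at BCL2A1. BCL2A1 had a K120R peak with a fold enrichment of 15.0, and NPL had none. CAMK2D differed from BIRC8 by T18C, with WT values of 52.2 and 57.6 and a K120R value of 12.9 at BIRC8. It also differed from SUSD1 by G3A, and there the shared RE had the further G/C bp, with WT and K120R values of 58.5 and 4.07. SUSD1 is thus an RE with 4 G/C bps and a K120R peak, and its K120R value was the lower of these. ANKRD50 differed from HLA-B by T18C, with WT values of 16.5 and 43.0.

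BAX differed from the RE listed for DCP1B by T10C, at the end of the first half-site. WT fold enrichment after Tet was 27.5 at BAX and 33.3 at DCP1B, and 9.20 and 30.7 in untreated cells. The K120R peak at DCP1B had a fold enrichment of 8.42. Both REs have 3 G/C bps at the flanking positions, so these positions do not separate this pair. STK17A differed from FTH1, the ferritin heavy chain gene, by T16A in the core, with WT values of 17.8 and 40.7. PHLDA1 differed from DERL3 by C11T, with 21.6 and 25.5, and PHF17 from MICB by G16A, with 18.2 and 46.2. C17orf67 differed by A6T from the RE of MIR34A, the gene of a p53-induced microRNA, with 15.6 and 50.9.

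Textbook p53 targets were grouped into 8 lists with 121 genes, of which 49 had a listed RE under a WT peak. Only a member RE was found at 17 of these genes, only a shared RE at 29, and both kinds at 3. By RE, 21 of 62 lacked a K120R peak (33.9%, 22.3 to 47.0%), against 57.5% of all WT peaks with a listed RE. Their median WT fold enrichment was 11.2 in members (7.17 to 19.01) and 23.3 in shared REs (17.7 to 29.5), against 11.2 and 20.1 for all members and all shared peaks. The genes not matched had no RE in the listed set, which says nothing of their binding.

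Among the genes of mitochondrial apoptosis, BAX, which forms pores in the outer mitochondrial membrane, was the member, while both REs of BBC3 (PUMA) and that of AEN were shared. The BAX peak (chr19:49458161-49458771) had a WT pileup of 164 fragments and lay in an intron of the gene, 298 bp from its start. CRADD, an adaptor that recruits caspases to death domains, was the member in the list of death receptors and adaptors (5.96), with FAS and PIDD1 shared. Of 8 other pro-death genes, 5 had a member RE, close to the share over all genes with a listed RE under a WT peak, 735 of 1219 (60.3%, 57.5 to 63.1%). They were SCIN, an actin-severing protein gene (30.5), PHLDA1 (21.6), JADE1 (PHF17; 18.2), the death-associated kinase gene STK17A (17.8) and TRAF4 (7.95). KLLN, ZMAT3 and TNFAIP8 were shared, with WT values of 34.4, 53.5 and 15.9.

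Cell cycle arrest genes had members at 5 of the 13 genes with a listed RE, against 60.3% over all genes. This difference was not tested. Only member REs were found at PLK3, a polo-like kinase gene (21.5, untreated 11.1), the antiproliferative gene BTG2 (11.2) and SFN, which encodes 14-3-3 sigma (5.06). CDKN1A, which encodes the kinase inhibitor p21, had a member RE upstream and a pair of shared REs, shown here with the flanking positions in capitals and named by their order along chromosome 6 (36635035-36635054, 36644226-36644245 and 36650420-36650439).
CDKN1A upstream: agAcaagCccggGcaagGcc
CDKN1A start: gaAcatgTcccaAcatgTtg
CDKN1A downstream: ggAcaagTcccaActtgCag
The upstream RE had 3 G/C bps and a WT fold enrichment of 19.01, with no untreated and no K120R peak. The RE at the start had 0 G/C bps and 49.7, and the downstream RE had 1 and 18.7, with a K120R value of 9.26. The upstream and downstream REs thus had similar WT values and differed in the K120R peak. FBXW7, the substrate receptor of a ubiquitin ligase, had member REs of 5.92 and 7.64 and a shared RE of 12.9. GADD45A, PLK2, E2F7, CCNG1, CCNG2, PRDM1, GAS6 and TOB1 had shared REs only.

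Of the DNA repair genes, XPC (8.05), which detects damaged bases, and POLH (9.53), a translesion polymerase, were members, and DDB2, PCNA, RAD51C and NUCKS1 were shared. In the group of p53 feedback and survival, SULF2, which removes sulfate from heparan sulfate, was the strongest member of all lists (38.7, untreated 8.97). MDM4, an inhibitor of p53, had a member RE (chr1:204478689-204478708) and a shared RE in its intron (chr1:204494174-204494193).
MDM4 member: ggGcatgTtgtaAcatgCag
MDM4 shared: agAcatgTtccaAcatgTtg
The member had 2 G/C bps and a WT fold enrichment of 16.1, and the shared RE had 0 and 23.2, with a K120R value of 7.91. MDM2, PPM1D, TRIAP1 and BCL2L1 were shared. SESN2, a stress-induced regulator of mTORC1, was a member (7.17) and its paralog SESN1 was shared (16.6). Among secreted factors, receptors and matrix, the members included COL4A1 (14.3) and the receptor gene EDA2R (5.58), while TGFA, EPHA2, GDF15, FAS and LIF were shared.

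**Figure D5:**
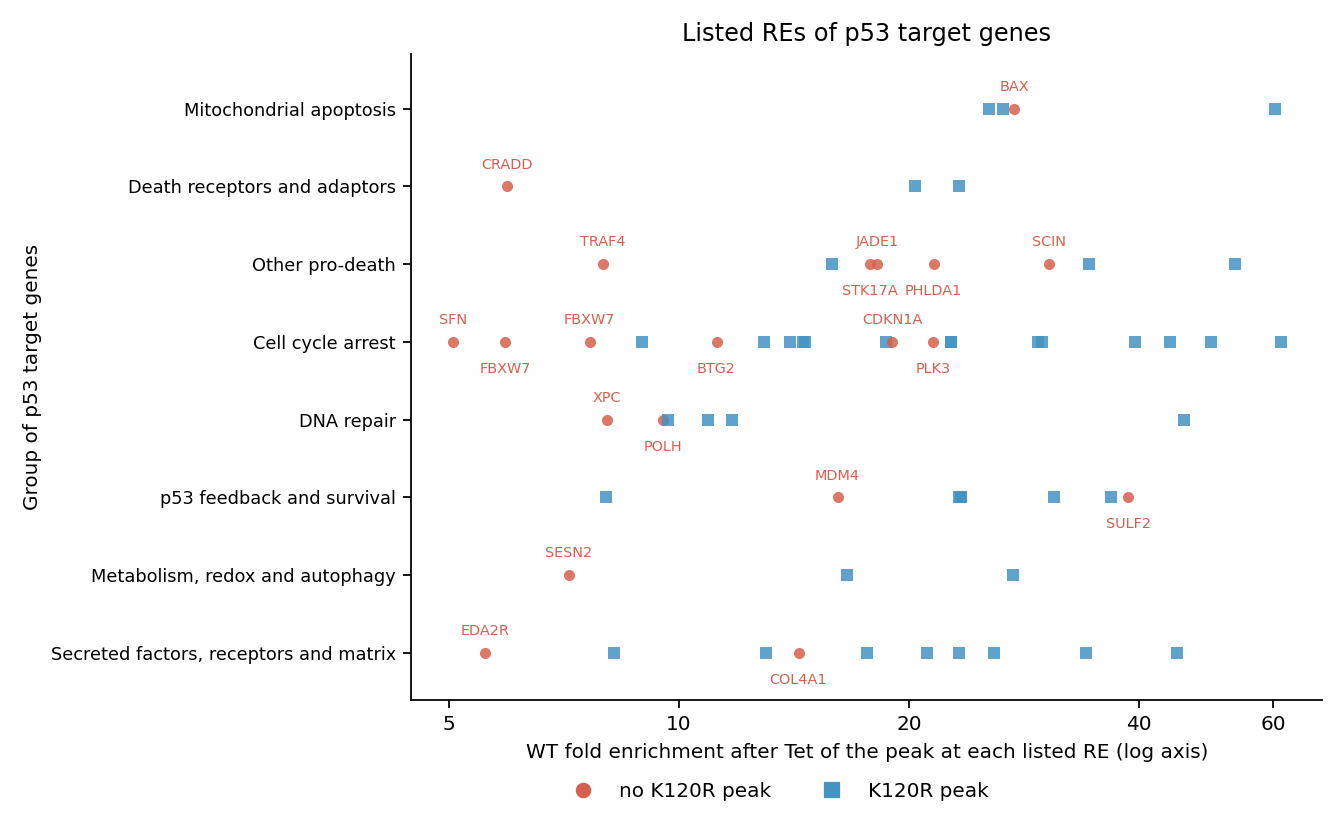
WT fold enrichment after Tet (x axis, log) of the peak at each listed RE of 8 groups of p53 target genes (y axis), with circles for REs without and squares for REs with a K120R peak, and gene names at the circles; 1 member RE is not drawn. Members spread from 5.06 at SFN to 38.7 at SULF2, while the shared REs reach 61.4 at PLK2.

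The source list gives 735 genes for the member REs and 542 for the shared REs, and 58 genes had both, which is 7.89% of the former and 10.7% of the latter. The 58 became 32 at a -log10 q of at least 10 in both lists and 27 with peaks seen in untreated WT cells left out. In 42 of the 58, WT fold enrichment was larger at the shared RE. The member had more G/C bps at the flanking positions in 34, fewer in 11 and an equal number in 13. ATF3, a stress-induced transcription factor gene, had a member of 8.20 and a shared RE of 53.1, and FTH1 had 6.06 and 40.7. The reverse was seen at CCDC170, with a member of 51.2 (3 G/C bps) and a shared RE of 22.0 (0 G/C bps), and at KLF3, with 38.5 (2 G/C bps) and 13.1 (0 G/C bps). More than 1 member RE was listed for 31 genes.

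Function labels were given for part of the REs, and 21 labels had at least 10. Protein transport had members at 11 of 14 REs (78.6%, 49.2 to 95.3%), cell adhesion at 18 of 23 (78.3%, 56.3 to 92.5%), protein dephosphorylation at 9 of 12 (75%, 42.8 to 94.5%), protein ubiquitination at 8 of 11 (72.7%, 39.03 to 93.98%) and ion transport at 25 of 35 (71.4%, 53.7 to 85.4%). Posttranscriptional gene silencing, the label of microRNA genes, had them at 35 of 51 (68.6%, 54.1 to 80.9%). The lowest shares were 5 of 17 for cell cycle arrest (29.4%, 10.3 to 56.0%), 4 of 13 for ion binding (30.8%, 9.09 to 61.4%) and 8 of 22 for negative regulation of apoptosis (36.4%, 17.2 to 59.3%). For positive regulation of apoptosis it was 6 of 14 (42.9%, 17.7 to 71.1%). Of the 21 labels, 20 had intervals that included the share over all listed REs with a WT peak, 57.4%. Cell cycle arrest was the exception, with an upper limit of 56.0%. Among 21 intervals at 95%, counting error alone can produce an exception, so nothing is read from this label.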

How the data were processed

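ChIP-seq peak lists of p53 in Tet-inducible H1299 cells were used, with 4 conditions and 1 library each. The authors aligned 75-bp reads to GRCh37/hg19 with BWA-MEM. Their peaks come from MACS 2.1.1.20160309, run per library with its input as control, a maximum of 1 tag per position and a q-value limit of 0.05. The deposited pileup is a signal, counted as scaled fragments at the summit. Fold enrichment, as deposited, is the ratio of that pileup to the local background. The authors' p-values and q-values were deposited on the -log10 scale. MACS used fragment lengths of 170 bp for the WT Tet library, 68 bp for K120R Tet and 64 bp for both untreated libraries, so values from separate lists do not share 1 scale. The narrow-peak and summit lists were not used here.

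Members were WT Tet peaks that overlapped by at least 1 bp any of the 1356 REs of the source data for the paper's ChIP-seq figure and no K120R Tet peak. A WT peak overlapped 1334 of these REs and 22 had none. Only positions, sequences, genes and function labels of the source data were used. G/C counts, mismatches and cores were taken from the listed sequences. GRCh37 gave the strand of REs listed with a span of 20 bp and the bases on either side. The gene of each RE was the listed one, while summit locations and distances to transcription starts came from GENCODE release 44. The members and the gene lists were chosen with earlier results of these data known.

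Members named in the text were taken from the 10 with the largest and the 5 with the smallest WT fold enrichment, the 5 with the largest untreated value, the 5 nearest to a K120R peak with the 5 shortest shared overlaps, and the 5 strongest with 0 and with 4 G/C bps. Members identical to or 1 base from a shared RE and those of genes in the lists were named too. Recurring sequences found only in members, members within 1 kb of a start, genes with both kinds of RE outside the lists, and REs with CATG and CTAG cores were named after their values were seen.

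No p-value was computed, as each condition stands on 1 library. No paired analysis was possible because the libraries have no replicates. Shares carry exact Clopper-Pearson intervals, differences Newcombe intervals and medians order-statistic intervals at 95%, all for counting error only. Python 3.11.15, numpy 2.4.6, pandas 2.3.3, scipy 1.17.1, pysam 0.24.0 and matplotlib 3.10.9 were used. The steps were tested on simulated data. Alternatives were minimum -log10 q values and fold enrichments, other rules for a shared peak and for the RE of a peak, leaving out peaks seen without Tet, REs of 20 bp only and 1 RE per peak.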

Additional observations from a re-analysis of the deposited data

How the results depend on the processing

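The 13 results were recomputed under 9 alternatives, which gave 115 values, and under 1 more chosen after seeing the data, 1 locus per distinct RE sequence. Of the 115 values, 102 stayed within the interval of the reported value (counts within 1.5 times), 13 moved beyond it and 0 changed sign. All 35 differences kept their sign, and the added alternative moved no result. The CATG difference was -1.32 points (-5.93 to 3.31) with peaks seen in untreated WT cells left out and -2.28 points (-6.74 to 2.25) at a -log10 q of at least 10 in both lists, so its interval then included 0. All REs that pair CATG with CTAG and had a WT peak were without a K120R peak under each of the 10 alternatives.

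Among WT peaks with a listed RE, 65.4% had no K120R peak with both lists kept at a -log10 q of at least 5. This share was 60.4% at a fold enrichment of at least 5 and 65.8% with peaks seen in untreated WT cells left out. A minimum -log10 q of 10 in both lists moved that share to 76.1%, the share of members with an untreated WT peak to 19.4% and its difference from shared peaks to -32.8 points. It also moved the median WT fold enrichment to 12.7, the share with 3 or 4 G/C bps to 31.3%, the share with a K120R peak within 10 kb to 0.832%, and the genes with both kinds of RE to 32. The same minimum for WT peaks alone moved the median to 11.9. Leaving out peaks seen in untreated cells moved the median to 10.5 and the genes with both kinds to 27, and it gives no value for the untreated share. A threshold removes weak peaks by construction, and other causes of these changes were not tested. With 1 library per condition, variation between experiments is unknown, and a weak K120R peak below the cutoff cannot be told apart from none.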

Other observations

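The list gave a 1-bp insert between the half-sites for 13 REs under a WT peak, and 9 of them were members (69.2%, exact 95% interval 38.6 to 90.9%). Among these members the WT fold enrichment was 33.8 near EDDM3A, in a peak that also holds a listed RE without an insert, and 32.2 near KITLG, which encodes the ligand of the KIT receptor. Another 13 REs had a listed span that differed from 20 bp with no insert given, and 11 of these were members (84.6%, 54.6 to 98.1%). Among REs of 20 bp without an insert the share was 746 of 1308 (57.0%, 54.3 to 59.7%).

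By chromosome, the share of WT peaks with a listed RE that had no K120R peak ran from 39 of 87 on chromosome 12 (44.8%, 34.1 to 55.9%) to 19 of 21 on chromosome 22 (90.5%, 69.6 to 98.8%), against 57.5% over all chromosomes. These are the extremes of 23 chromosomes, picked after the values were seen. A CpG at the junction of the half-sites was present in 5.35% of member REs and 6.34% of shared REs, a difference of -0.99 points (-3.68 to 1.53).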
